A study of Homo sapiens with 6 samples.

Results

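The genes described here encode respiratory complexes II, III, IV and V of mitochondria, with cytochrome c. They were chosen by gene symbol: SDHA to SDHD for complex II, the UQCR genes, CYC1 and MT-CYB for complex III, CYCS for cytochrome c, the numbered COX genes and the MT-CO genes for complex IV, and the ATP5 and MT-ATP genes for complex V. This gave 67 of the 24154 genes of the table. There were 4 genes of complex II, 11 of complex III, 1 of cytochrome c, 20 subunit genes of complex IV, 9 numbered COX genes that encode assembly factors of complex IV, and 22 of complex V. Mitochondrial DNA encodes 6 of them and nuclear chromosomes encode 61. RNA was sequenced from cells labelled HCT116, a human colorectal carcinoma line, collected at 48 h. Controls received negative control siRNA (NC, 3 libraries), and the other cells an siRNA against CPT2 (CPT2 knockdown, 3 libraries). CPT2, carnitine palmitoyltransferase 2, releases long-chain acyl-CoA inside mitochondria for fatty acid oxidation. No other genotype or agent is named for either group. The labels do not say whether replicates were separate cultures, so the tests measure the spread between these libraries, which may be technical.

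The marker genes of the labelled cell type were only partly present. The epithelial keratin gene KRT8 had 28140 to 38864 counts per library and KRT18 had 18799 to 30882. EPCAM, the epithelial adhesion molecule, had 84 to 121 counts, and CDH1, E-cadherin, had 26 to 91. CDX2, the intestinal transcription factor, had 0 counts in every library, and VIL1, villin of the brush border, had 0 to 3. CLDN7, an epithelial tight junction claudin, had 1154 to 1721 counts. KRT19 and LGALS4, also on the epithelial list, had 6 to 39 and 9 to 32 counts. Markers of other cell types were mostly low, such as the fibroblast collagen gene COL1A2 with 2 to 14 counts and the endothelial gene PECAM1 with 7 to 25. COL1A1, also a fibroblast marker, had 1759 to 3236 counts, and CDH5, an endothelial cadherin, had 1320 to 2709. CD68, on the leukocyte list, had 611 to 863 counts. These cells are therefore called by their label only.

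Complex II (succinate dehydrogenase) passes electrons from succinate to coenzyme Q, complex III passes them from coenzyme Q to cytochrome c, and complex IV (cytochrome c oxidase) passes them on to oxygen. Complexes III and IV pump protons across the inner mitochondrial membrane, and complex V (ATP synthase) uses the return of those protons to make ATP. Complex II is built from nuclear gene products only, whereas the other complexes join nuclear subunits to a core translated inside mitochondria. Mitochondrial mRNAs are cut from long transcripts of the mitochondrial genome and polyadenylated, and nuclear subunit mRNAs are transcribed gene by gene.

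The sequence of the mitochondrial genes shows how closely they are packed, which bears on how reads could be assigned to them. MT-ATP8 and MT-ATP6 share 46 bases on the same strand, and MT-ATP6 shares 1 base with MT-CO3. The shared 46 bases are in capitals in the 3′ end of MT-ATP8 (chrM:8515-8572) and the 5′ end of MT-ATP6 (chrM:8527-8584), both on the plus strand of GRCh38.
MT-ATP8 3′ end: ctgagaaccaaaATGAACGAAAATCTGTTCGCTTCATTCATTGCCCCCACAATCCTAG
MT-ATP6 5′ end: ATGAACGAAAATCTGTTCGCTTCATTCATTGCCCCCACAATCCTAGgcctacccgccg
The last bases of 5 mitochondrial genes are shown because they differ in how the reading frame ends, with the final codon, or the bases of it that the genome holds, in capitals. MT-CO2 and MT-ATP6 carry a full stop codon, and MT-CO1 is annotated up to AGA. MT-CO3 and MT-CYB end on a bare T, and it is textbook knowledge that the poly(A) tail supplies the rest of their stop codon. The positions were chrM:7428-7445 for MT-CO1, chrM:8252-8269 for MT-CO2, chrM:9972-9990 for MT-CO3, chrM:15869-15887 for MT-CYB and chrM:9190-9207 for MT-ATP6, all on the plus strand.
MT-CO1: gtatacataaaatctAGA
MT-CO2: cccgtatttaccctaTAG
MT-CO3: atctattgatgagggtctT
MT-CYB: aaaatactcaaatgggccT
MT-ATP6: ctgcacgacaacacaTAA

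Several nuclear members have a close copy, and the sequences below show how far reads could tell the copies apart. UQCRH, the hinge subunit of complex III, and the gene UQCRHL each have a coding sequence of 276 bases, with 4 mismatches between them (98.6% identity). Coding bases 108 to 167 are shown for UQCRH (chr1:46310181-46310240, plus strand) and UQCRHL (chr1:15807483-15807542, minus strand), with the mismatched bases in capitals.
UQCRH: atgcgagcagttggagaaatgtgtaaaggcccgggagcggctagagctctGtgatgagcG
UQCRHL: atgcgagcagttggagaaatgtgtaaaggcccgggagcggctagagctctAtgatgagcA
The c subunit, which forms the rotating ring of complex V, is encoded by ATP5MC1, ATP5MC2 and ATP5MC3. Their last 78 codons, stop codon included, encode the same residues from different bases. Over those 234 bases ATP5MC1 and ATP5MC2 were 88.5% identical, and ATP5MC3 was 79.9% identical to each of them. A stretch of 60 coding bases is shown for ATP5MC1 (chr17:48895216-48895275, plus strand), ATP5MC2 (chr12:53669207-53669266, minus strand) and ATP5MC3 (chr2:175179116-175179175, minus strand), with the 18 positions that vary among the 3 genes in capitals.
ATP5MC1: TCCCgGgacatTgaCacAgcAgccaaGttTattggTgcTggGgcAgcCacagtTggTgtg
ATP5MC2: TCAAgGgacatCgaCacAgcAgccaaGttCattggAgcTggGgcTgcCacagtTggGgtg
ATP5MC3: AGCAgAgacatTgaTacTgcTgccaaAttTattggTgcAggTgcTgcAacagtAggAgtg

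Library totals were 28353790 to 29449380 counts. CPT2 itself, the targeted gene, had 23.6, 28.6 and 29.1 CPM (counts relative to the TMM-scaled library size) in NC replicates 1 to 3 and 19.4, 21.3 and 19.0 CPM in the CPT2 knockdown replicates 1 to 3. Its log2 fold change was -0.44 (SE 0.17, 95% interval -0.83 to -0.06), with an adjusted p of 0.338 in edgeR's quasi-likelihood test. The groups did not overlap, and the exact 2-sided permutation test gave p = 0.1, the smallest that 3 libraries against 3 allow. With each library's trend on transcript GC content and length removed (called GC and length offsets below), the log2 fold change of CPT2 was 0.02. A principal component analysis placed CPT2 knockdown replicate 1 at 76.6 on its main axis (53.2% of the variance), with the 5 remaining libraries between -44.6 and 16.0. In bulk RNA, a change in the share of cells and a change in RNA per cell cannot be told apart.

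No member of complexes II to V passed an adjusted p of 0.05 in edgeR, where 61 of the 67 were tested. Among all genes, 2 of the 15302 tested passed (0.0131%), by edgeR with Benjamini-Hochberg adjustment. DESeq2 and limma-voom also called 0 members. At an unadjusted p under 0.05, 9 members were higher in the CPT2 knockdown libraries and 0 were lower, against 9.18% and 5.29% of all tested genes. Those 9 were MT-CYB, MT-CO3, MT-ATP6, CYC1, COX6B2, ATP5PF, ATP5F1D, ATP5IF1 and ATP5MC2, and without CPT2 knockdown replicate 1 the number was 4, where 5.09% of all genes tested in that fit were higher at that p. In 5 members (CYC1, COX6B2, ATP5PF, ATP5IF1 and ATP5F1C) every CPT2 knockdown library lay above every NC library, and in 0 members did every one lie below, against 12.2% of all tested genes in each direction. The smallest adjusted p of any member was 0.338 and the largest 0.984 in edgeR.

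The log2 fold change was above 0 in 46 of the 61 tested members, against 50.7% of all tested genes. It was above 0 in 6 of 6 mitochondrial genes, with a median of 0.64, and in 40 of 55 nuclear genes, with a median of 0.17. The median of all tested genes was 0.01. By complex, the nuclear median was 0.03 for complex II, 0.26 for complex III, 0.39 for complex IV subunits, 0.04 for complex IV assembly factors and 0.20 for complex V. With GC and length offsets, 32 of 55 nuclear genes were above 0, with a median of 0.11, and the 6 mitochondrial genes had a median of 0.40. Of the 40 nuclear genes above 0 without offsets, 26 were above 0 with them and 14 were below, and 6 went from below to above. The nuclear medians by complex were then -0.02 for complex II, -0.08 for complex III, 0.23 for complex IV subunits, -0.02 for the assembly factors and 0.23 for complex V.

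**Figure D1:**
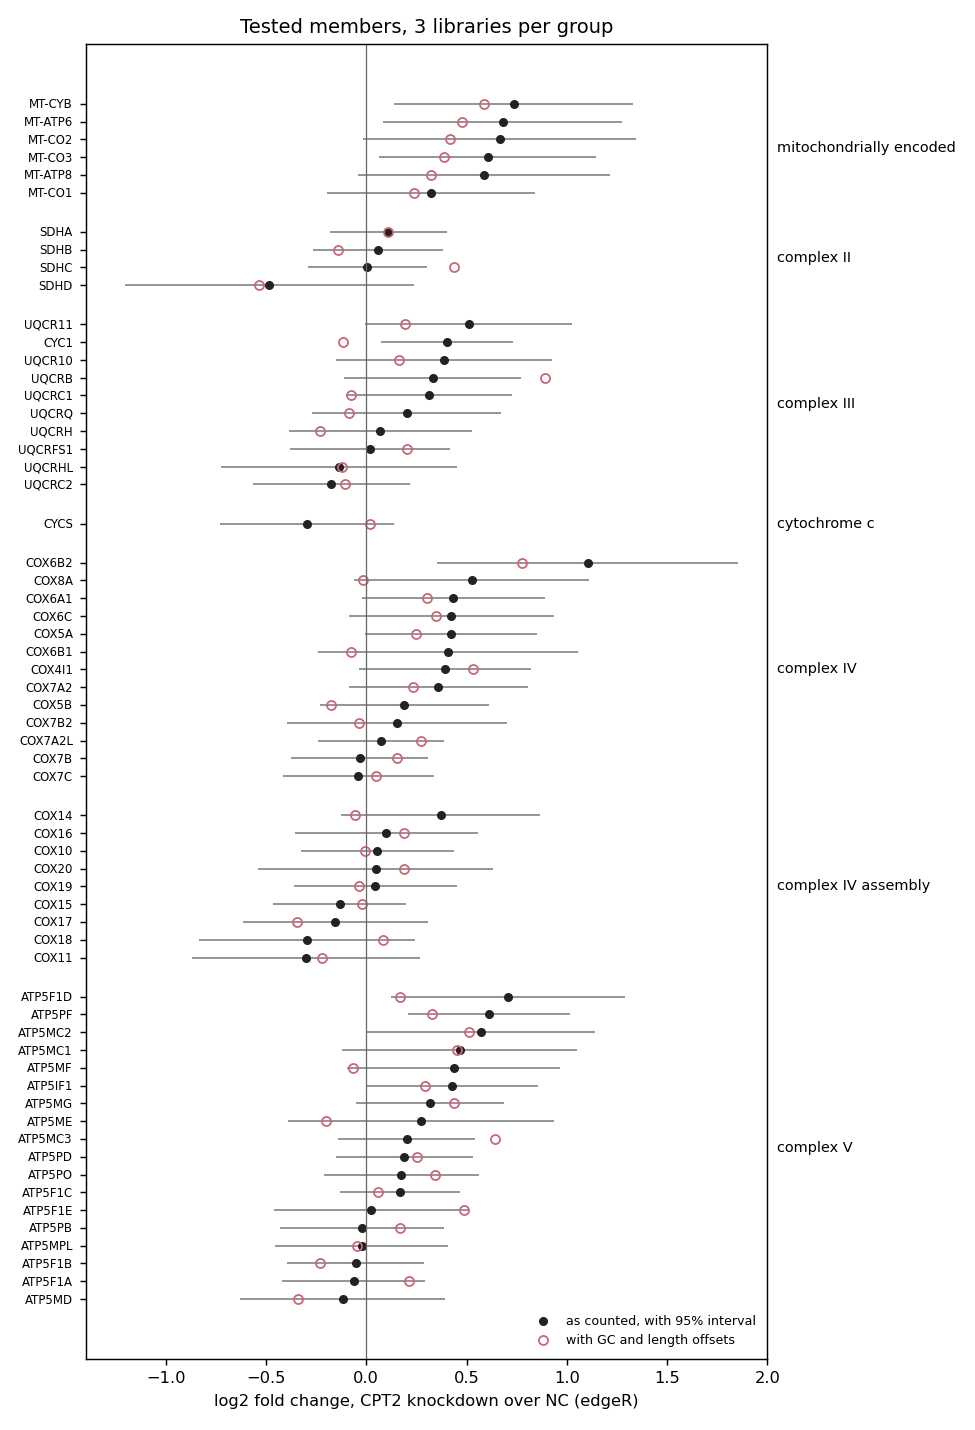
Log2 fold change of the 61 tested members (CPT2 knockdown over NC, edgeR, 3 libraries per group), ordered within each complex, on the x axis. Filled points with lines give the value and its 95% interval from the counts, and open points the value with GC and length offsets. The 6 mitochondrial genes lie between 0.32 and 0.73, and the open points of CYC1, COX8A and COX6B1 lie below 0.

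The 6 mitochondrial genes were high in CPT2 knockdown replicates 1 and 2 and not in replicate 3. MT-CYB, cytochrome b of complex III, had 5602, 5171 and 5515 CPM in NC replicates 1 to 3 and 12351, 9294 and 5455 CPM in CPT2 knockdown replicates 1 to 3. The third knockdown library thus lay inside the control range. Its log2 fold change was 0.73 (SE 0.26, 95% interval 0.14 to 1.33), with an adjusted p of 0.338 in edgeR.

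The core of complex IV, which holds its redox centres, comes from MT-CO1 and MT-CO2, and MT-CO3 completes it. MT-CO1 had 25416, 25577 and 21481 CPM in the NC libraries and 35357, 34904 and 20306 CPM in the knockdown libraries. MT-CO2 had 12487, 10715 and 10008 CPM in the NC libraries and 26710, 15236 and 10717 CPM in the knockdown libraries. In both genes replicates 1 and 2 of the knockdown lay above every control, and replicate 3 lay below every control for MT-CO1 and inside the range for MT-CO2. MT-CO3 had 11349, 10412 and 10056 CPM in the NC libraries and 20676, 17325 and 10399 CPM in the knockdown libraries. The log2 fold changes were 0.32 (SE 0.23) for MT-CO1, 0.67 (SE 0.30) for MT-CO2 and 0.61 (SE 0.24) for MT-CO3.

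MT-ATP6 and MT-ATP8 encode subunits a and A6L of the membrane part of complex V. MT-ATP6 had 9268, 9369 and 9493 CPM in the NC libraries and 20152, 15986 and 8978 CPM in the knockdown libraries. MT-ATP8 had 1633, 1982 and 2127 CPM in the NC libraries and 2966, 3976 and 1687 CPM in the knockdown libraries. Replicates 1 and 2 of the knockdown were again above all controls, and replicate 3 was not. The log2 fold changes were 0.68 (SE 0.26) for MT-ATP6 and 0.59 (SE 0.28) for MT-ATP8.

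**Figure D2:**
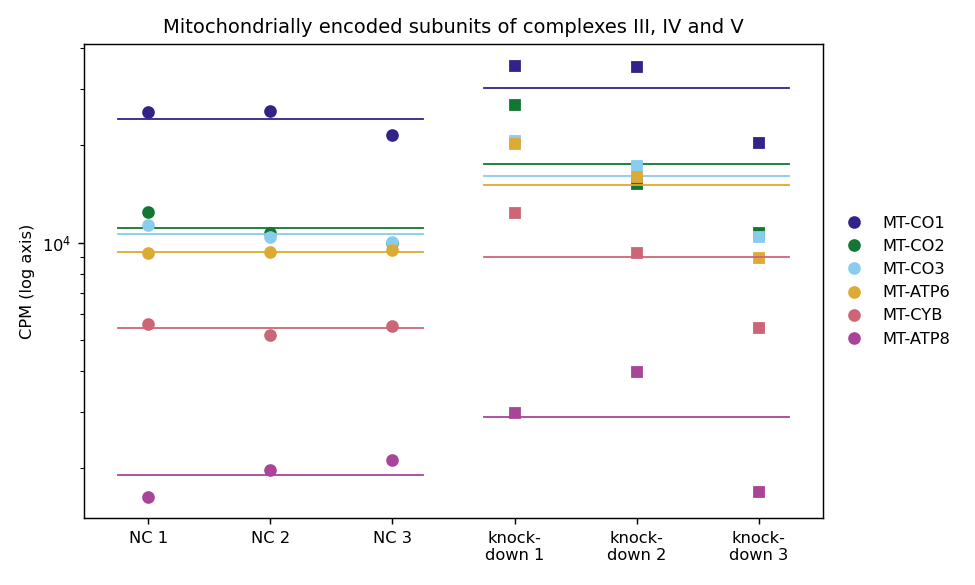
CPM (log axis) of the 6 mitochondrial genes of complexes III, IV and V in each of the 6 libraries. Circles are NC libraries, squares are CPT2 knockdown libraries, and horizontal lines are group means. In CPT2 knockdown replicates 1 and 2 every gene lies above its NC values, for example MT-CYB at 12351 and 9294 against 5171 to 5602.

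The mitochondrial genes did not keep a fixed proportion to each other. MT-CO2 had 0.491, 0.419 and 0.466 counts per count of MT-CO1 in the NC libraries, and 0.755, 0.437 and 0.528 in the knockdown libraries. Knockdown replicate 1 stood outside the control range by the widest margin, and replicate 2 lay within it. MT-CO3 had 0.447, 0.407 and 0.468 counts per count of MT-CO1 in the NC libraries, and 0.585, 0.496 and 0.512 in the knockdown libraries. MT-CYB had 0.220, 0.202 and 0.257 counts per count of MT-CO1 in the NC libraries, and 0.349, 0.266 and 0.269 in the knockdown libraries. In both of these proportions every knockdown library lay above every control, replicate 3 included. How often other gene pairs lie apart in this way was not counted. MT-ATP8 had 0.176, 0.212 and 0.224 counts per count of MT-ATP6 in the NC libraries, and 0.147, 0.249 and 0.188 in the knockdown libraries, so knockdown replicates 1 and 2 departed in opposite directions from the control range. MT-ATP6 had 0.817, 0.900 and 0.944 counts per count of MT-CO3 in the NC libraries, and 0.975, 0.923 and 0.863 in the knockdown libraries, largely overlapping.

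Leaving out CPT2 knockdown replicate 1 gave a mitochondrial median log2 fold change of 0.39, and leaving out replicate 3 gave 0.89. Each library's median over the 6 genes, as log2 CPM minus the control mean, was 0.06, -0.01 and -0.03 in the NC libraries and 1.03, 0.74 and -0.05 in the knockdown libraries. With each library's GC and length trend removed, the knockdown values were 0.70, 0.65 and -0.28. The 6 genes made up 6.75%, 6.70% and 6.24% of all counts in the NC libraries and 10.4%, 9.56% and 5.73% in the knockdown libraries. All genes of mitochondrial DNA, these 6 included, showed the same arrangement. They made up 10.5%, 10.8% and 10.0% in the NC libraries and 17.0%, 15.6% and 8.99% in the knockdown libraries.

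Complex II had the median nearest to 0 of the 4 complexes. SDHA, the flavoprotein that oxidises succinate, had 463, 438 and 454 CPM in the NC libraries and 531, 438 and 494 CPM in the knockdown libraries. SDHB, the iron-sulfur subunit, had 71.5 ± 1.99 CPM in NC and 74.4 ± 7.58 CPM in the knockdown (SD, n = 3). SDHC, a membrane anchor, had 104 ± 5.27 CPM in NC and 104 ± 4.48 CPM in the knockdown (SD, n = 3). In all 3 genes the groups overlapped, with log2 fold changes of 0.11, 0.06 and 0.01. With GC and length offsets these were 0.11, -0.14 and 0.44, with an SE of 0.15 for SDHC. The offsets took the length of SDHC as 13566 bases, that of its longest transcript, which may not be the one expressed.

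SDHD, the other membrane anchor, had the most negative log2 fold change of all tested members. It had 32.1, 37.7 and 36.5 CPM in the NC libraries and 12.7, 29.4 and 33.8 CPM in the knockdown libraries. The low value sat in knockdown replicate 1, and replicate 3 lay inside the control range. The difference on the log2 scale was -0.48 (SE 0.32, 95% interval -1.20 to 0.24), with an adjusted p of 0.405 in edgeR, and it was -0.17 without CPT2 knockdown replicate 1. There were 0.0694, 0.0861 and 0.0805 counts of SDHD per count of SDHA in the NC libraries. In the knockdown libraries there were 0.0240, 0.0671 and 0.0685. All 3 knockdown libraries were below the controls in this proportion, but replicate 3 lay only just below NC replicate 1. How often other gene pairs lie apart in this way was not counted. Complex II holds 1 copy each of SDHA and SDHD.

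In complex III, 8 of 10 nuclear genes had a log2 fold change above 0, with a median of 0.26. With GC and length offsets 4 of 10 were above 0, with a median of -0.08. CYC1, cytochrome c1 (chromosome 8), had 128, 113 and 133 CPM in the NC libraries and 183, 147 and 165 CPM in the knockdown libraries. Every knockdown library lay above every control. Its fitted log2 fold change was 0.40 (SE 0.14, 95% interval 0.08 to 0.73), with an adjusted p of 0.338 in edgeR. CYC1 has a transcript GC content of 64.5%, and with GC and length offsets its log2 fold change was -0.11.

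The other redox subunit, the Rieske iron-sulfur protein UQCRFS1, had 64.6 ± 7.45 CPM in NC and 65.5 ± 11.8 CPM in the knockdown (SD, n = 3). The core proteins UQCRC1 and UQCRC2 had log2 fold changes of opposite sign, 0.31 (SE 0.18) and -0.17 (SE 0.17), both with overlapping groups. UQCRC1 had 269, 215 and 250 CPM in the NC libraries and 339, 230 and 343 CPM in the knockdown libraries, with replicate 2 inside the control range. With GC and length offsets its value was -0.08.

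The 5 small subunits UQCR10, UQCR11, UQCRB, UQCRH and UQCRQ all had log2 fold changes above 0, from 0.07 to 0.51, with a median of 0.33, and 3 of 5 were above 0 with offsets. UQCR11 had 32.4, 26.1 and 32.6 CPM in the NC libraries and 56.4, 31.8 and 41.7 CPM in the knockdown libraries, with replicate 2 again inside the control range. UQCRB moved most with the offsets in this complex, from 0.33 to 0.89. Its longest transcript has 38.3% GC and 5575 bases.

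UQCRHL held few reads beside its near-identical copy. It had 152 to 285 counts per library against 3430 to 5674 for UQCRH. That is 0.0542, 0.0485 and 0.0466 counts per count of UQCRH in the NC libraries, and 0.0518, 0.0443 and 0.0349 in the knockdown libraries. With 4 mismatches between the coding sequences, the deposited counts of the pair are uncertain, since the labels and headers do not tell how reads with several matches were treated.

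CYCS, cytochrome c, carries electrons from complex III to complex IV and is also known from apoptosis. It had 133, 131 and 131 CPM in the NC libraries and 79.7, 107 and 135 CPM in the knockdown libraries. The controls lay close together, and the knockdown libraries spread from well below them to just above. The difference on the log2 scale was -0.30 (SE 0.19, 95% interval -0.73 to 0.14), with an adjusted p of 0.400 in edgeR, and 0.02 with offsets.

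Among the 17 nuclear subunit genes of complex IV, 13 were tested and 11 had a log2 fold change above 0, 9 of 13 with offsets. COX4I1, the nuclear subunit with the highest level per length in this complex, had 304, 226 and 297 CPM in the NC libraries and 399, 278 and 410 CPM in the knockdown libraries. Knockdown replicates 1 and 3 lay above all controls and replicate 2 lay inside their range. Its log2 fold change was 0.39 (SE 0.19) and with offsets 0.53. The offsets took its length as 3946 bases, that of its longest transcript, which may not be the one expressed. COX6A1 had 163, 116 and 144 CPM in the NC libraries and 239, 151 and 182 CPM in the knockdown libraries, the same arrangement. COX8A had 61.4, 42.7 and 53.6 CPM in the NC libraries and 104, 52.1 and 70.5 CPM in the knockdown libraries. Its log2 fold change of 0.53 (SE 0.26) became -0.01 with offsets. COX6B1 went from 0.41 to -0.08 in the same way.

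COX7A2L, which is known for joining complexes III and IV into supercomplexes, had 85.5 ± 2.40 CPM in NC and 89.8 ± 8.96 CPM in the knockdown (SD, n = 3). On the authors' FPKM (a level per transcript length and sequencing depth) the same gene had 63.1 ± 5.70 in NC and 50.4 ± 7.37 in the knockdown (SD, n = 3), so counts and FPKM gave opposite directions. COX7B and COX7C had log2 fold changes of -0.03 and -0.04, the lowest of the complex. The other main tested subunits, COX5A, COX5B, COX6C and COX7A2, lay between 0.19 and 0.42, all with overlapping groups.

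Complex IV has tissue forms of several subunits, and the forms known from muscle, lung or testis were low or absent. COX4I2 and COX8C had 0 counts in all 6 libraries. For scale, 3 counts in the smallest scaled library correspond to 0.119 CPM, and a level well below that could have been missed. COX6A2 and COX7A1, the heart and skeletal muscle forms, had 11 and 24 counts in all 6 libraries together, against 3584 to 6039 counts per library for COX6A1 and 1425 to 2272 for COX7A2. COX7B2 had 138 to 240 counts per library against 2529 to 3475 for COX7B, and its log2 fold change was 0.15 (SE 0.24).

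COX6B2, a form of subunit 6B known from testis, had the highest log2 fold change of all tested members and the lowest level among them. It had 34, 38 and 42 counts in the NC libraries and 85, 84 and 48 counts in the knockdown libraries, which is 1.13, 1.23 and 1.34 CPM and 3.36, 3.00 and 1.65 CPM. Every knockdown library lay above every control, with replicate 3 close to them. Its fitted log2 fold change was 1.11 (SE 0.33, 95% interval 0.35 to 1.86), with an adjusted p of 0.338 in edgeR, 0.90 without CPT2 knockdown replicate 1 and 0.78 with offsets. Its usual counterpart COX6B1 had 1737 to 3794 counts per library. An unnamed gene, AC020922.1, shares 1178 exon bases with COX6B2 on the same strand and had 0 to 5 counts.

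The 9 numbered COX genes that encode assembly factors were split, 5 above 0 and 4 below, from -0.30 to 0.37, with a median of 0.04 and adjusted p-values from 0.372 to 0.923 in edgeR. COX14, which couples the synthesis of MT-CO1 to assembly, had 26.1, 22.0 and 27.1 CPM in the NC libraries and 35.4, 23.3 and 38.6 CPM in the knockdown libraries. Its log2 fold change was 0.37 (SE 0.22) and -0.06 with offsets. COX17, a copper chaperone, had 11.4 ± 0.812 CPM in NC and 10.3 ± 1.98 CPM in the knockdown (SD, n = 3). COX15, which makes heme A, had 66.5 ± 4.58 CPM in NC and 60.6 ± 5.32 CPM in the knockdown (SD, n = 3). COX10, which acts before COX15 in making heme A, had 12.8 ± 1.01 and 13.3 ± 0.0950 CPM (SD, n = 3).

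In complex V, 13 of 18 tested nuclear genes had a log2 fold change above 0, and 13 of 18 did with offsets. The catalytic head is built from ATP5F1A to ATP5F1E. ATP5F1B, the catalytic beta subunit and the nuclear member with the highest level per length, had 1055, 914 and 937 CPM in the NC libraries and 919, 799 and 1084 CPM in the knockdown libraries, with a log2 fold change of -0.05 (SE 0.15, 95% interval -0.39 to 0.29). ATP5F1D, the delta subunit of the central stalk, had 57.9, 43.6 and 66.8 CPM in the NC libraries and 102, 59.7 and 113 CPM in the knockdown libraries. Replicate 2 of the knockdown lay among the controls and the other two lay above them. The log2 fold change of ATP5F1D was 0.71 (SE 0.26, 95% interval 0.13 to 1.29), with an adjusted p of 0.338 in edgeR. Its transcript GC content is 63.9%, and with offsets the value was 0.17. ATP5F1C, the gamma subunit, had 97.5 ± 6.46 CPM in NC and 109 ± 3.75 CPM in the knockdown (SD, n = 3), without overlap and with a log2 fold change of 0.17.

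ATP5PF, coupling factor 6 of the peripheral stalk, had the smallest unadjusted p of all tested members. It had 52.7, 43.3 and 50.8 CPM in the NC libraries and 81.1, 83.4 and 59.7 CPM in the knockdown libraries. The 3 knockdown libraries lay above the 3 controls, and replicates 1 and 2 were the high ones. The difference on the log2 scale was 0.61 (SE 0.18, 95% interval 0.21 to 1.01), with an adjusted p of 0.338 in edgeR, 0.54 without CPT2 knockdown replicate 1 and 0.33 with offsets. The other stalk genes ATP5PB, ATP5PD and ATP5PO had log2 fold changes of -0.02, 0.19 and 0.18.

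The 3 genes of the c ring had log2 fold changes of 0.47 (ATP5MC1), 0.57 (ATP5MC2) and 0.20 (ATP5MC3), and 0.45, 0.51 and 0.64 with offsets. ATP5MC2 had 254, 183 and 222 CPM in the NC libraries and 461, 229 and 289 CPM in the knockdown libraries, with replicate 1 by far the highest. ATP5MC1 had 96.1, 74.5 and 89.6 CPM in the NC libraries and 164, 75.5 and 120 CPM in the knockdown libraries, the same order. Without CPT2 knockdown replicate 1 the values were 0.16 for ATP5MC1, 0.23 for ATP5MC2 and 0.17 for ATP5MC3. As a share of the authors' FPKM summed over the 3 genes, ATP5MC2 held 67.4%, 62.7% and 58.9% in the NC libraries and 69.3%, 66.4% and 58.0% in the knockdown libraries. ATP5MC1 held 26.8% to 35.0% and ATP5MC3 3.86% to 7.08% over the 6 libraries, so the mix of the 3 genes overlapped between the groups. The place of ATP5MC3 depends on the transcript length used, since its longest transcript has 5484 bases. By mean CPM in NC, ATP5MC3 (110) stood above ATP5MC1 (86.7) and below ATP5MC2 (220).

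ATP5IF1, the inhibitor that blocks the reverse, ATP-consuming reaction of complex V, had 56.0, 56.6 and 67.1 CPM in the NC libraries and 101, 67.9 and 72.6 CPM in the knockdown libraries. The groups did not overlap, but replicate 2 of the knockdown lay just above NC replicate 3. Its fitted log2 fold change was 0.43 (SE 0.19, 95% interval 0.00 to 0.85), with an adjusted p of 0.338 in edgeR, 0.22 without CPT2 knockdown replicate 1 and 0.29 with offsets. The small membrane subunits ATP5MD, ATP5ME, ATP5MF, ATP5MG and ATP5MPL ran from -0.12 to 0.44, and with offsets 1 of these 5 was above 0. ATP5MGL and the readthrough gene ATP5MF-PTCD1 were not tested. ATP5MGL had 8 counts in all 6 libraries and ATP5MF-PTCD1 had 0 to 5 per library.

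Per length, the mitochondrial genes stood far above the nuclear ones. In NC the 6 mitochondrial genes ran from 4700 FPKM (MT-CYB) to 15968 FPKM (MT-CO2). The 55 tested nuclear genes ran from 0.617 FPKM (COX6B2) to 521 FPKM (ATP5F1B), with a median of 59.4. The median was 42.9 FPKM for complex II, 35.0 for the nuclear genes of complex III, 94.3 for those of complex IV, 77.5 for those of complex V and 12.3 for the assembly factors. Within complex II SDHA stood at 197 FPKM, and SDHB, SDHD and SDHC followed at 61.3, 24.5 and 11.7. By FPKM the transcripts of a complex with 1 copy of each subunit thus did not stand at equal levels. The place of SDHC depends on the transcript length used, since its longest transcript has 13566 bases. By CPM in NC, SDHC (104) stood above SDHB (71.5) and SDHD (35.4). FPKM of single genes need care: ATP5F1A had 180, 80.4 and 78.9 FPKM in the NC libraries and 51.9, 53.8 and 202 FPKM in the knockdown libraries, while its CPM ranged only from 328 to 450. Its FPKM per CPM differed 3.16-fold between libraries, the most of any tested member, and the next was UQCRB with 1.59-fold.

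**Figure D3:**
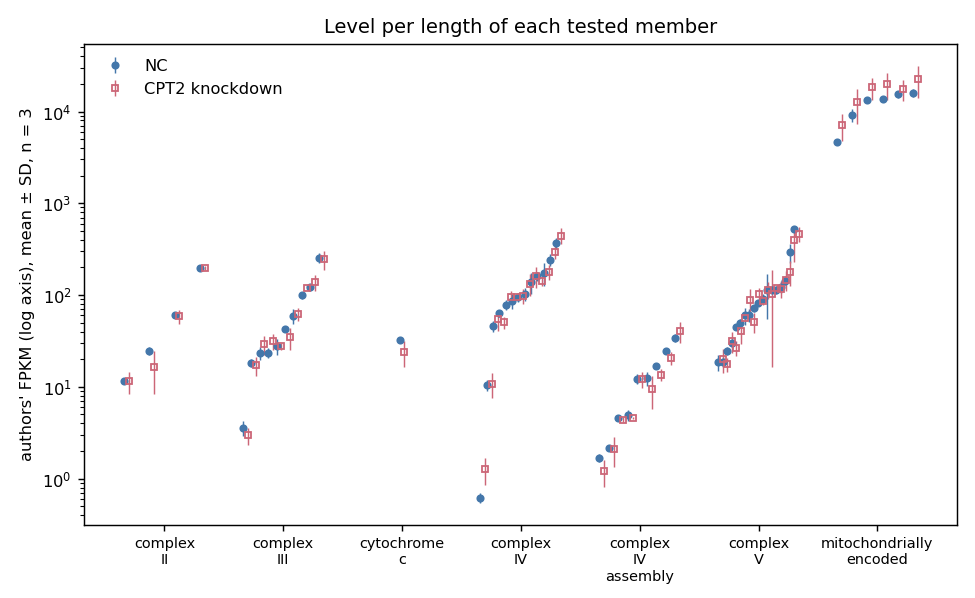
Authors' FPKM (log axis) of each tested member, mean ± SD over 3 libraries, grouped by complex and origin and ordered by the NC mean. Circles are NC and open squares are CPT2 knockdown. The mitochondrial genes lie between 4700 and 15968 FPKM in NC, above every nuclear gene, of which ATP5F1B at 521 is the highest.

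The counts of mitochondrial genes per count of nuclear genes of the same complex were high in knockdown replicates 1 and 2, as the mitochondrial genes were. For complex III this proportion was 5.92, 6.72 and 6.04 in the NC libraries and 11.2, 11.1 and 4.95 in the knockdown libraries. For complex IV it was 39.7, 48.8 and 35.8 in the NC libraries and 51.8, 62.4 and 28.5 in the knockdown libraries. For complex V it was 3.82, 4.76 and 4.40 in the NC libraries and 7.44, 8.22 and 3.40 in the knockdown libraries. In each complex, knockdown replicates 1 and 2 lay above all controls and replicate 3 lay below all controls. The knockdown libraries thus stood on both sides of the controls in these proportions, and the group difference depends on which of them are counted. Nuclear sums in knockdown replicate 3 were 1103, 1452 and 3133 CPM for complexes III, IV and V. The highest NC sums were 946, 1239 and 2857 CPM. The mitochondrial sum of complex III in knockdown replicate 3 (5455 CPM) lay inside the control range. Those of complexes IV and V lay below all controls.

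**Figure D4:**
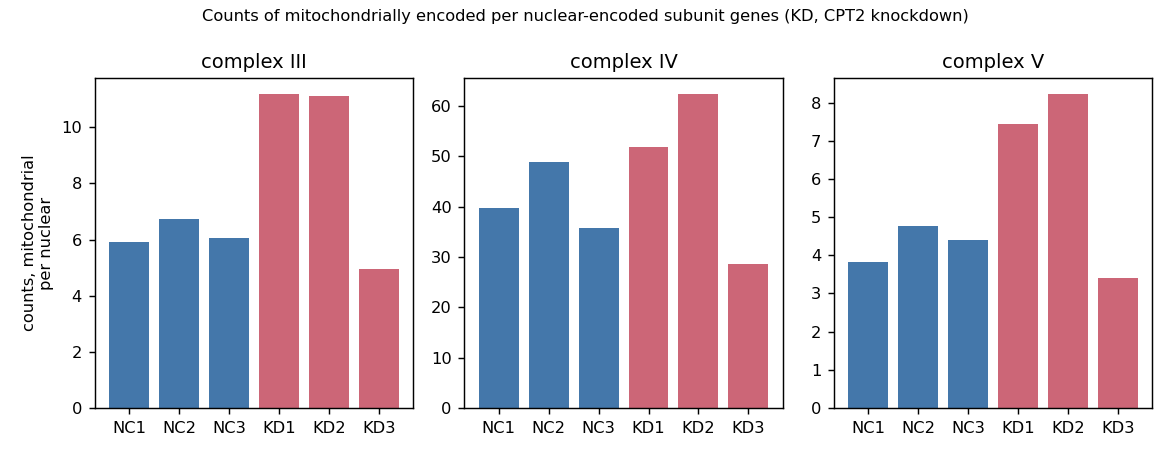
Counts of mitochondrial subunit genes per count of nuclear subunit genes of complexes III, IV and V, 1 bar per library, each panel with its own axis from 0. KD is CPT2 knockdown. KD1 and KD2 stand above the NC bars and KD3 below them in each panel, for example 11.2, 11.1 and 4.95 against 5.92 to 6.72 in complex III.

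The nuclear genes were arranged differently over the knockdown libraries. Of the 55 tested nuclear members, 32 lay above all 3 controls in the first CPT2 knockdown library, 9 in the second library and 39 in the third library. Over all tested genes these shares were 42.0%, 27.0% and 37.4%, and for the nuclear members they were 58.2%, 16.4% and 70.9%. Below all 3 controls were 9 nuclear members in replicate 1, 16 in replicate 2 and 1 in replicate 3, or 16.4%, 29.1% and 1.82%, against 42.6%, 26.7% and 35.2% of all tested genes. Above the controls, the nuclear members' share thus exceeded that of all genes in replicates 1 and 3, and the mitochondrial genes were high in replicates 1 and 2.

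The controls varied as well. In NC replicate 2, 0 of 10 nuclear genes of complex III and 0 of 18 of complex V lay above the control mean, and the nuclear median was -0.18, against 0.10 and 0.05 in NC replicates 1 and 3. Without NC replicate 2 the nuclear median log2 fold change was 0.10. The list for signs of RNA quality, nuclear-retained or intron-retaining transcripts such as NKTR and OGT, lay the other way. Of its 15 names, 9 matched a gene, and all 9 were tested. The non-coding RNAs MALAT1, NEAT1, KCNQ1OT1, MEG3, SNHG1 and GAS5 matched no gene of the table. The 9 genes had a median of -0.15, 0.21 and -0.07 in the NC libraries. In the knockdown libraries their median was -0.89, -0.09 and -0.32, and 7 of 9 had a log2 fold change below 0. Their median transcript GC content is 37.7%, that of the nuclear members 46.9% and that of all tested genes with an annotated transcript 48.9%. After removal of that trend on GC content and length, the list's knockdown medians were 0.08, 0.03 and 0.01, and those of the nuclear members 0.14, -0.07 and 0.10. The part of GC content and RNA quality in the values of the members was not tested beyond these offsets.

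**Figure D5:**
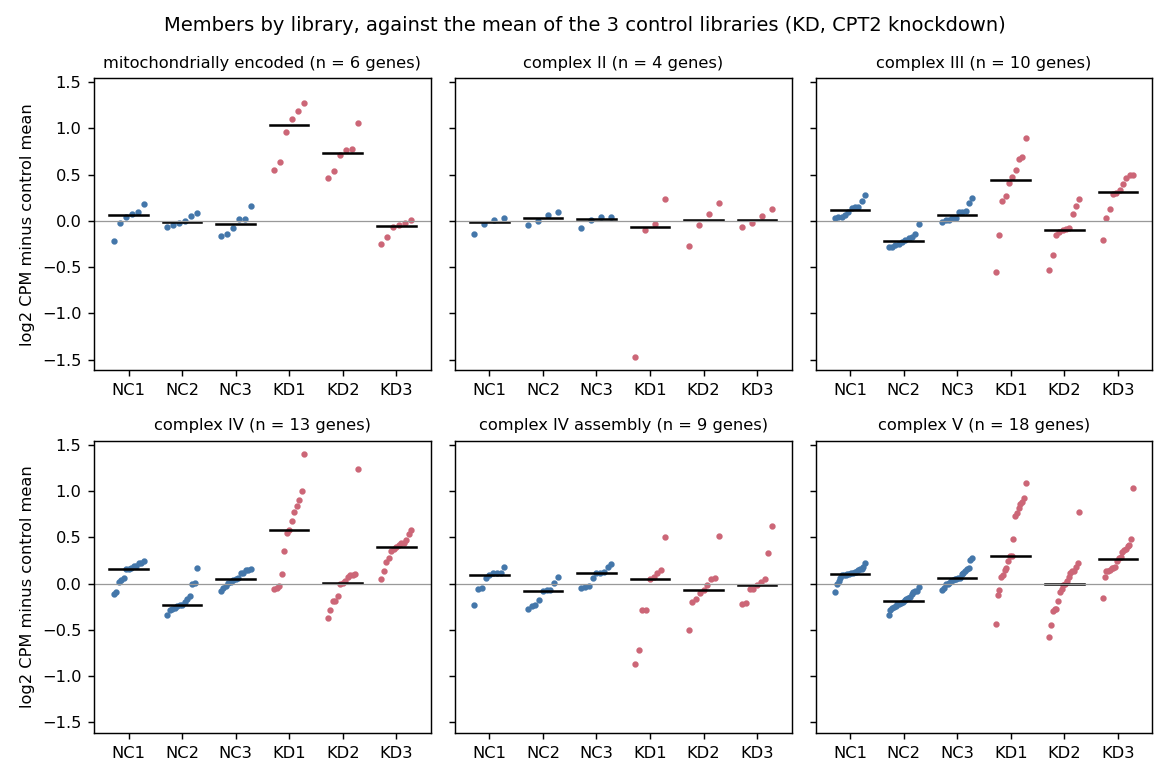
Log2 CPM minus the mean of the 3 NC libraries for every tested member except CYCS, by library, in 6 panels (mitochondrial genes, then the nuclear genes of each complex and the complex IV assembly factors). Each point is a gene and black bars are medians. KD is CPT2 knockdown. The mitochondrial medians are 1.03, 0.74 and -0.05 in KD1 to KD3, and NC2 lies below 0 in complexes III and V.

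Assembly factors and related genes of complexes II to V outside the symbol rule were taken as a list of 42 names. The names matched 40 separate genes, all tested, and APOPT1 and COA8 name the same gene. Of these, 24 had a log2 fold change above 0 and 16 below, with a median of 0.16, and 0 passed the adjusted threshold in edgeR. At an unadjusted p under 0.05, 3 were higher (7.5%) and 0 lower, against 9.18% and 5.29% of all tested genes. They were SDHAF1, an assembly factor for the iron-sulfur subunit of complex II (0.75, SE 0.25), COA4 (0.44, SE 0.16) and COA8 (0.56, SE 0.17), both linked to complex IV. LRPPRC, which stabilises mitochondrial mRNAs, had 288 ± 20.8 CPM in NC and 221 ± 62.8 CPM in the knockdown (SD, n = 3), and its log2 fold change of -0.38 (SE 0.21) was opposite in sign to those of the mitochondrial genes. SLIRP, its binding partner, had 0.24 (SE 0.20).

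Coenzyme Q, which links complexes I and II to complex III, is made by the PDSS and COQ genes. Of 13 tested, 11 had a log2 fold change above 0, with a median of 0.11, and 0 passed the adjusted threshold in edgeR. COQ4 was the only one with an unadjusted p under 0.05 (1 of 13, 7.69%, against 9.18% of all tested genes), at 0.57 (SE 0.20), with 46.1 ± 1.95 CPM in NC and 68.2 ± 18.6 CPM in the knockdown (SD, n = 3).

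In the authors' deposited table, which rests on DESeq2, 3 members were called up (ATP5PF, COX6B2 and MT-CYB) and 0 down. The authors' deposited table called 378 of 13635 genes up (2.77%) and 188 down (1.38%). A rule of unadjusted p below 0.01 and at least 1.5-fold difference returned the call of all 13635 genes, so these calls carry no adjustment for multiple tests. The authors' deposited table gave log2 fold changes of 0.61 for ATP5PF, 1.11 for COX6B2 and 0.74 for MT-CYB.

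Exons of 28 members overlap another gene of the table, 16 on the same strand and 14 on the opposite strand (members with both are counted in each). The labels and headers do not tell whether reads were counted by strand. Counts were also summed over genes linked by same-strand exon overlap, which turned 2 members. ATP5MG went from 0.32 to -0.08 when joined with KMT2A and AP001267.5, and COX16 from 0.10 to -0.12 when joined with SYNJ2BP and SYNJ2BP-COX16. Joining MT-ATP8, MT-ATP6 and MT-CO3 gave 0.64. UQCR11 went from 0.51 to 0.67 when joined with MBD3 and AC005943.1. Of these partners, KMT2A, SYNJ2BP and MBD3 share no exon bases with the member. They were linked through AP001267.5 (0 to 30 counts per library), SYNJ2BP-COX16 (3 to 12) and AC005943.1 (0 counts). The sums thus hold reads of genes that do not overlap the member. COX20, an assembly factor with 4.58 to 8.03 CPM, shares 3502 exon bases on the opposite strand with HNRNPU, which had 767 to 971 CPM, so its count is uncertain.

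ATP5PF, with the smallest unadjusted p, and SDHD, with the most negative log2 fold change, both start beside a gene on the opposite strand, so their promoters are shown. ATP5PF shares 413 exon bases with GABPA, which encodes the DNA-binding subunit of an ETS factor known for acting on promoters of respiratory genes. GABPA had 15.0, 25.7 and 20.5 CPM in the NC libraries and 6.40, 17.7 and 15.0 CPM in the knockdown libraries, with a log2 fold change of -0.65 (SE 0.36) and -0.24 with offsets, opposite in sign to ATP5PF. SDHD shares 26 exon bases with TIMM8B, which encodes a chaperone of the intermembrane space. TIMM8B had 16.0, 11.2 and 12.8 CPM in the NC libraries and 22.2, 13.7 and 19.8 CPM in the knockdown libraries, with a log2 fold change of 0.47 (SE 0.24) and 0.33 with offsets, opposite in sign to SDHD. The RefSeq promoters (GRCh38.p14, 250 bases before to 50 after the start) follow for ATP5PF (chr21:25735005-25735304, minus strand) and SDHD (chr11:112086623-112086922, plus strand). Capitals mark matches to 3 motifs searched on both strands: NRF1 as GCGCA, then any base, then GCGC, ETS as CCGGAAG and YY1 as ANATGGCG, all known from promoters of respiratory genes.
ATP5PF: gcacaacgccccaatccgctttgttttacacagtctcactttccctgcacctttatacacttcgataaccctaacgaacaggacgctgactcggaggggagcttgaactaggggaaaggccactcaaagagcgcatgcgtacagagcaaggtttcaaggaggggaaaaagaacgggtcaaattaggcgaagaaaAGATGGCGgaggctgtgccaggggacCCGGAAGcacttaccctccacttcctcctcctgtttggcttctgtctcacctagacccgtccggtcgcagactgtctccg
SDHD: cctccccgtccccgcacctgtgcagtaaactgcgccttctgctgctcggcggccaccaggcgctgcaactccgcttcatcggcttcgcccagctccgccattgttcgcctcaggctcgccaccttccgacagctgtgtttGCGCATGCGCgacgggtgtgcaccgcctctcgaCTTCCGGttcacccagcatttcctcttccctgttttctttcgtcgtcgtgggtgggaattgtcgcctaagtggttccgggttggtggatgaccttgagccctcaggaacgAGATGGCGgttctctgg

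A RefSeq promoter was matched for 45 of the 67 members. The ETS letters stood in 17 of those 45 promoters (37.8%), against 10.3% of all 35116 promoters. The NRF1 letters stood in 12 (26.7%), against 5.78%, and the YY1 letters in 9 (20%), against 4.57%. The 35116 promoters were not limited to expressed genes or matched to the members in base content. These matches are letters only and show no binding. The median log2 fold change was 0.20 for the 17 tested members with the ETS letters and 0.11 for the 26 without, 0.17 for the 11 with the NRF1 letters and 0.17 for the 32 without, and 0.06 for the 9 with the YY1 letters and 0.17 for the 34 without.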

How the data were processed

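Per the file headers, the deposited table gives whole-number read counts for each gene in each library, the authors' FPKM values, and the p-values, log2 fold changes and calls of a DESeq2 comparison. The submitters' processing notes name GRCh38 as the build and HISAT2, TopHat2, Bowtie2, StringTie, DESeq2 and edgeR as tools. RNA was captured on oligo(dT) beads, per the labels' protocols, so mitochondrial reads come from polyadenylated transcripts.

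All 15302 genes kept by filterByExpr were fitted with edgeR 4.0.16 in R 4.3.3 (TMM, robust quasi-likelihood F-test, Benjamini-Hochberg, threshold 0.05). CPM use TMM-scaled library sizes, and log2 CPM a prior count of 2. Alternatives used DESeq2 1.42.0 and limma 3.58.1, other scalings and filters, log2(FPKM + 1), summed overlapping genes, the replicate block, and offsets fitted by loess in each library to GC content and length of the longest GENCODE 29 transcript. The longest transcript may not be the one expressed, so values with offsets are uncertain for single genes. For COX4I1 it has 3946 bases, yet the FPKM per CPM in NC replicate 1 was 1.30. MT-CO1, with 1542 bases, had 0.626. Scripts were tested on simulated data. Intervals cover 95%.

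Members, lists and tests were chosen with earlier results of these data known. Named genes were CPT2, all mitochondrial members, complex II, CYC1, CYCS, per complex up to 6 members at an unadjusted p under 0.05 and the 3 highest by FPKM, paralogs and overlapping members. Others were chosen after their values were seen. Cell type markers gave these tested numbers and median log2 fold changes: 7 of 9 epithelial (0.44), 3 of 6 fibroblast (0.19), 2 of 6 leukocyte (0.43), 3 of 4 endothelial (-0.12) and 2 of 6 muscle genes (0.71).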

Additional observations from a re-analysis of the deposited data

How the results depend on the processing

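The replicate block called 1 member, ATP5F1D (0.68), and the GC and length offsets with the replicate block called 4, SDHC (0.42), COX4I1 (0.51), ATP5MC3 (0.60) and ATP5MG (0.41). Calls with offsets rest on the longest transcript, of 13566 bases for SDHC and 3946 for COX4I1. The block called 633 genes in all and the offsets with the block 630, against 2 in the unblocked fit and 17 in DESeq2. Every other setting tried called 0 members. The labels name no pairing, so the replicate numbers were not taken as pairs. Same-numbered libraries had correlations of 0.250, 0.363 and 0.0065 between their deviations from the group means. Differently numbered libraries had -0.320 to 0.0911. These values do not settle whether replicates were paired. In the named genes, 691 values kept their direction and side of the threshold, 63 turned sign and 5 newly passed.

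With GC and length offsets CPT2 was 0.019, 20 of the 61 tested members turned sign, and of the named members these did: SDHB (-0.14), CYC1 (-0.11), CYCS (0.017), UQCRH (-0.23), UQCRC1 (-0.078), COX14 (-0.056), COX6B1 (-0.075), COX7B (0.15), COX7B2 (-0.039), COX8A (-0.014), ATP5MF (-0.067) and COX19 (-0.038). With the offsets and the replicate block, these named members turned: SDHB (-0.15), CYC1 (-0.12), CYCS (0.0041), UQCRH (-0.24), UQCRC1 (-0.083), COX14 (-0.067), COX6B1 (-0.096), COX7B (0.14), COX7B2 (-0.055), COX8A (-0.012), ATP5MF (-0.071) and COX19 (-0.033). Scaling by library size alone moved the median of all genes to -0.13, gave a nuclear median of 0.03 and a mitochondrial one of 0.47, and turned, of the named members, SDHA (-0.032), SDHB (-0.077), SDHC (-0.13), UQCRH (-0.073), COX7A2L (-0.062), COX16 (-0.037) and COX19 (-0.097). On log2(FPKM + 1) the nuclear median was 0.032, and these named members turned: SDHA (-0.00065), SDHB (-0.074), SDHC (-0.051), UQCRH (-0.076), COX7A2L (-0.33), COX7B (0.060), COX16 (-0.034) and COX19 (-0.079). SDHC was -0.0011 with DESeq2, -0.0012 with RLE factors, -0.0073 with no filter, -0.0011 with scaling without mitochondrial DNA genes. Summing genes linked by exon overlap turned, of the named members, ATP5MG (-0.076) and COX16 (-0.12), each joined with a gene that does not overlap it. Leaving out each library in turn gave ranges across 0 for SDHB (-0.025 to 0.12), SDHC (-0.036 to 0.037), UQCRH (-0.057 to 0.24), ATP5F1B (-0.17 to 0.043), COX7A2L (-0.013 to 0.11), COX7B (-0.12 to 0.051), COX7B2 (-0.094 to 0.27), UQCRHL (-0.39 to 0.033), COX16 (-0.028 to 0.22) and COX19 (-0.065 to 0.10).

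Leaving out each library moved the nuclear median between 0.097 and 0.26 and the mitochondrial one between 0.39 and 0.89; the lowest came without NC replicate 2 and CPT2 knockdown replicate 1, respectively. The cause of these shifts was not tested. The number of reads limits COX6B2, with 34 to 85 counts per library.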
